A study of Mus musculus with 2 samples.

Results

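A set of 8 genes that microglia use to sense or break down extracellular nucleotides, out of 32285 genes in the count tables, was followed in scRNA-Seq of sorted mouse spinal microglia. They were taken by symbol and not by a cut on their values, though earlier results of these data were known. P2ry12 and P2ry13 encode Gi-coupled receptors for ADP, P2ry6 encodes a Gq-coupled receptor for UDP, and Gpr34 encodes a related receptor for lysophosphatidylserine. P2rx4 and P2rx7 encode cation channels that ATP opens, Adora3 encodes a Gi-coupled receptor for adenosine, and Entpd1 encodes CD39, an enzyme on the cell surface that breaks ATP and ADP down to AMP. There was 1 library of each genotype. The control library carries the label WT and is named as Eif4ebp1fl/fl elsewhere in the study, and the 4E-BP1–cKO library came from Eif4ebp1fl/fl:TMEM119CreERT2 mice, in which an inducible Cre recombinase under the Tmem119 promoter removes 4E-BP1, a repressor of cap-dependent translation, from microglia. The mice were male and 8 to 10 weeks old and had received 4-hydroxytamoxifen, which activates the Cre, from postnatal day 4 to 9. How many mice went into each library was not stated.

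ATP that leaves damaged or active cells acts directly on P2X channels. Ectonucleotidases cut it to ADP, AMP and finally adenosine, which act on P2Y and adenosine receptors, so that 1 released molecule can reach several receptors in turn. In resting microglia the ADP receptors steer the fine processes toward a source of ATP. In the spinal cord, microglial P2X channels are known for their part in pain hypersensitivity after nerve injury, and P2rx7 for the assembly of the NLRP3 inflammasome and the release of interleukin-1β.

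Cells were released with collagenase IV, sorted as CD45lo CD11b+ CX3CR1+ and captured in droplets. Transcripts were read from the 3′ end, and each captured molecule counted once through its unique molecular identifier (UMI). Levels were compared between genes without division by gene length. Whether reads within introns were counted was not checked, and the 8 genes span from 2.99 kb (P2ry13) to 129 kb (Entpd1). Of 1216 control and 474 4E-BP1–cKO barcodes, those over 300 genes and below 5% of UMIs from mitochondria were retained, which left 1147 and 445 cells with 4803562 and 1734332 UMIs, at a median of 3053 and 2776 UMIs per cell. The libraries shared 0 cell barcodes. At least 3 of 8 microglial markers were seen in 92.2% (control) and 87.4% (4E-BP1–cKO) of cells. The same minimum was reached for another cell type in at most 5 cells of a library, those of oligodendrocytes. Eif4ebp1 itself had 95 and 51 UMIs, or 19.8 and 29.4 CPM (counts per 1e6 UMIs), so it stood higher in the 4E-BP1–cKO library, and 3′ reads do not check the deletion. Since each genotype had 1 library, the genotypes could not be tested against each other, and no p-value is given. Levels are CPM. UMI counts are given with exact 95% Poisson intervals, ratios with exact conditional Poisson intervals and shares with exact (Clopper-Pearson) binomial intervals. All of them cover counting error only, so variation from mouse, sort or capture is left out. Those of levels and ratios also treat each UMI as independent. They leave out variation from cell to cell and may be too narrow where UMIs gather in a few cells.

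Among the 8 genes, 4 lie in neighbouring pairs. P2ry13 ends 5.39 kb from P2ry12 on chromosome 3 (GRCm38.p6, which is mm10; 59207892 to 59210882 and 59216271 to 59262985, minus strand). P2rx7 and P2rx4 lie 15.2 kb apart on chromosome 5 (122643927 to 122692336 and 122707518 to 122729739, plus strand). P2ry6 is on chromosome 7 (100937630 to 100975498), Gpr34 on X (13622650 to 13640859), Adora3 on chromosome 3 (105904421 to 105908928) and Entpd1 on chromosome 19 (40612366 to 40741602). Adora3 lies within the span of Tmigd3 on the same strand (68 and 13 UMIs in the control and 4E-BP1–cKO cells), so its counts are uncertain. Med12l spans both P2ry12 and P2ry13, Camkk2 overlaps P2rx4 and Cask spans Gpr34, each on the opposite strand. The promoters of the neighbouring pairs are shown because both genes of the first pair were lower, and both of the second higher, in cells with few ribosomal protein transcripts, as described below. RefSeq entries (GRCm38.p6; 250 bases before to 50 after the start) were found for 6 of the 8 genes. Both strands were searched for GAGGAA, a core bound by the macrophage factor PU.1, CCGGAA, another ETS core, which shares the letters GGAA with the first, TGANTCA, the AP-1 motif, and CACGTG, an E-box. Of 32851 promoters of this length, 28.3% held GAGGAA, 14.9% CCGGAA, 7.81% TGANTCA and 7.15% CACGTG. Capitals mark each match, and a match is a description of letters, not a binding site.
P2ry12, chr3:59262936-59263235 (minus strand): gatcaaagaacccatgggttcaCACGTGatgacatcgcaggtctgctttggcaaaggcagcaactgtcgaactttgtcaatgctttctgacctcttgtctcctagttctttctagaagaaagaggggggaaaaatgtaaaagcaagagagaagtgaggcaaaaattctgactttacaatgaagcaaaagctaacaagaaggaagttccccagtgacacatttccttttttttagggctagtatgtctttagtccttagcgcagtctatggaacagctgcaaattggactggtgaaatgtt
P2ry13, chr3:59210833-59211132 (minus strand): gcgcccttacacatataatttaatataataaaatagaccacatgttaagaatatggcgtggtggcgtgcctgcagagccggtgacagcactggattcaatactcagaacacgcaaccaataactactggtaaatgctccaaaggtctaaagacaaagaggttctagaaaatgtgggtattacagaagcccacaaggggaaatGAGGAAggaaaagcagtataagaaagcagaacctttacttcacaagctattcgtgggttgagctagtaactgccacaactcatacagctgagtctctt
P2rx7, chr5:122643677-122643976 (plus strand): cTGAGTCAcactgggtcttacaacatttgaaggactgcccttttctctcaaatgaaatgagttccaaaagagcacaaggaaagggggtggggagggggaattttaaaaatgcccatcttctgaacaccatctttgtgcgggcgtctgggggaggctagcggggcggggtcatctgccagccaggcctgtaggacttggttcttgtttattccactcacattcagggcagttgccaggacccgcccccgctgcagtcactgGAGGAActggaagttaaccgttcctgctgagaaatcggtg
P2rx4, chr5:122707294-122707593 (plus strand): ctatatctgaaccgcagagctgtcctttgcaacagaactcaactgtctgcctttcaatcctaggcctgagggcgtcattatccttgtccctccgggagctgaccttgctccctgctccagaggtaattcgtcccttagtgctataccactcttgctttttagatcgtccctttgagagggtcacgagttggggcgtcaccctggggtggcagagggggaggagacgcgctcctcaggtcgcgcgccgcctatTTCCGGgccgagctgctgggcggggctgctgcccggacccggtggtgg

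The P2ry12 window held CACGTG, and the P2ry13 window held GAGGAA. The first P2rx7 promoter, of 2 listed, held TGAGTCA, which is a form of TGANTCA, and GAGGAA. The P2rx4 window held CCGGAA on the minus strand, seen as TTCCGG. No motif of the 4 was shared by both genes of a pair.

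The 8 genes spanned a wide range of levels in the same order in both libraries except for 1 exchange. P2ry12 was first, with 1079 CPM (1050 to 1109; 5182 UMIs) in control microglia and 969 CPM (923 to 1016; 1680 UMIs) in those of 4E-BP1–cKO mice. Entpd1 followed with 846 CPM (820 to 872) and 710 CPM (671 to 751), and Gpr34 with 624 CPM (602 to 646) and 595 CPM (559 to 633). These 3 genes held 33.7%, 26.4% and 19.5% of the control UMIs of the 8 genes and 33.7%, 24.7% and 20.7% of those in the 4E-BP1–cKO library. P2rx7 had 204 CPM (191 to 217) and 159 CPM (140 to 179), and P2ry13 had 192 CPM (180 to 205) and 193 CPM (172 to 214). The intervals of P2rx7 and P2ry13 overlapped in both libraries, and P2ry13 stood above P2rx7 only in the 4E-BP1–cKO library. P2ry6 had 132 CPM (122 to 143) and 133 CPM (117 to 152), and P2rx4 had 94.3 CPM (85.8 to 103) and 82.5 CPM (69.5 to 97.1). Adora3 was last, with 143 UMIs, or 29.8 CPM (25.1 to 35.1), and 53 UMIs, or 30.6 CPM (22.9 to 40.0). In the control library, no other neighbours in the order had overlapping intervals. In the 4E-BP1–cKO library P2rx7 and P2ry6 also overlapped.

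Between the libraries, the level of each gene differed by less than 1.5-fold. A gene was called past 1.5-fold only if it had at least 200 UMIs over both libraries, which 7 of the 8 reached and Adora3, with 196, did not. Of these 7, 0 were called, where 4.4% of all 4887 genes with that many UMIs were. P2rx7 had the lowest log2 ratio of 4E-BP1–cKO to control, -0.36 (computed with 1 CPM added to each level), with a ratio of 0.779 (0.679 to 0.891). Entpd1 came next with a log2 ratio of -0.25 and a ratio of 0.839 (0.787 to 0.895), and P2ry12 had -0.16 and 0.898 (0.849 to 0.949). The intervals of these 3 genes lay below 1. Those of the other genes held 1, with log2 ratios of -0.19 for P2rx4 (ratio, 0.719 to 1.06), -0.07 for Gpr34 (0.888 to 1.02), 0.00 for P2ry13 (0.882 to 1.14), 0.01 for P2ry6 (0.862 to 1.17) and 0.04 for Adora3 (0.734 to 1.42). The median log2 ratio was -0.16 over the 7 genes and -0.03 over all 4887. How many of those 4887 genes had an interval without 1 was not counted, so the 3 intervals below 1 have no background. A single control cell held 132 UMIs of Entpd1, 3.25% of that library's Entpd1 UMIs, where the next cell held 35. Without the cell with the most Entpd1 UMIs of each library, the Entpd1 levels were 821 and 704 CPM and the ratio was 0.858 (0.804 to 0.916). A single 4E-BP1–cKO cell held 18 UMIs of P2rx7, 6.55% of that library's P2rx7 UMIs, where the next cell held 7. Without the cell with the most P2rx7 UMIs of each library, the P2rx7 ratio was 0.753 (0.654 to 0.866).

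**Figure D1:**
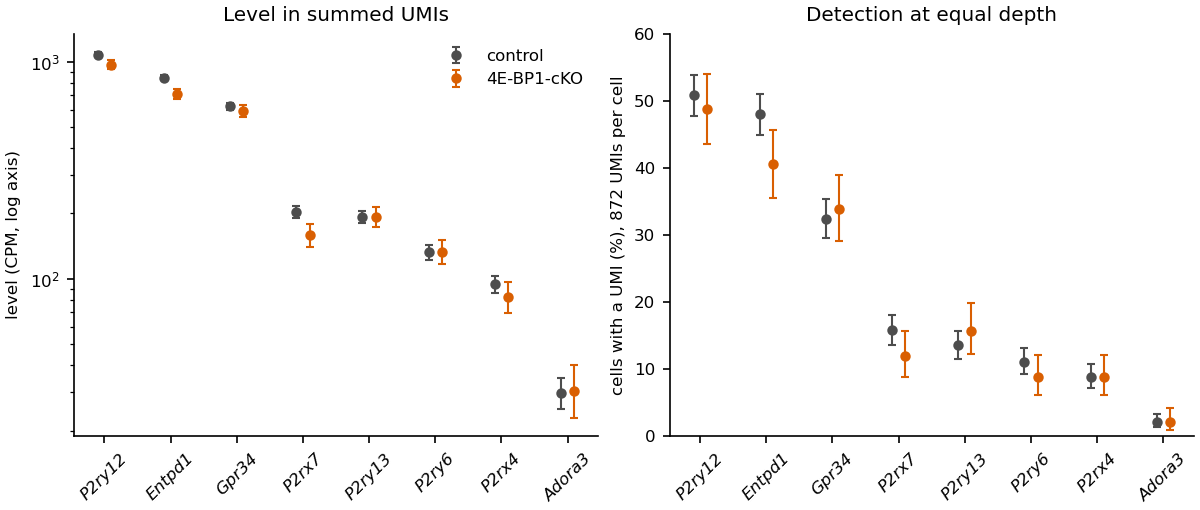
Level in CPM (left, log axis) and percentage of cells with a UMI after thinning to equal depth (right) for the 8 genes in the control and 4E-BP1–cKO libraries; bars are 95% intervals of counting error. P2ry12 ranks first and Adora3 last in both libraries, and the intervals for the level of P2ry12, Entpd1 and P2rx7 do not overlap between the libraries.

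Whether a cell showed a gene depended on its depth. P2ry12 had at least 1 UMI in 881 control cells (76.8%; 74.3 to 79.2%) and 322 4E-BP1–cKO cells (72.4%; 68.0 to 76.5%), and Entpd1 in 75.9% (73.3 to 78.3%) and 69.9% (65.4 to 74.1%). Gpr34 was detected in 61.3% and 57.5%, P2ry13 in 39.1% and 38.9%, P2rx7 in 38.4% and 33.5%, P2ry6 in 33.4% and 29.9%, P2rx4 in 26.6% and 21.8% and Adora3 in 10.6% and 9.66%. Each cell was then thinned to 872 UMIs, which kept 1058 control and 375 4E-BP1–cKO cells and left out 89 and 70. P2ry12 was then seen in 50.9% (47.8 to 53.9%) and 48.8% (43.6 to 54.0%), Entpd1 in 48.0% (45 to 51.1%) and 40.5% (35.5 to 45.7%), and Adora3 in 2.17% (1.38 to 3.24%) and 2.13% (0.925 to 4.16%). Intervals at equal depth overlapped for all 8 genes, though for Entpd1 only between 45 and 45.7%. Overlap of 2 intervals does not show equal shares, and how often the intervals of other genes overlap was not counted. No cell type that should lack these genes had over 5 cells, so the background from free RNA was not estimated.

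Cells differed in the share of their UMIs that fell on 84 ribosomal protein genes, and the 8 genes divided along this axis. The split was set at 3%, which put 490 control and 233 4E-BP1–cKO cells above it, with 657 and 212 cells at or below it. Between 2 and 4% lay 199 and 67 cells. Whether the share forms a single range or 2 types of cells was not tested. Levels here are CPM over a total that leaves those genes and the mitochondrial ones out. Gpr34 was at 829 CPM (795 to 864) above the split and 423 CPM (394 to 454) below it in control microglia, and at 780 CPM (728 to 835) and 372 CPM (322 to 426) in those of 4E-BP1–cKO mice. The log2 ratios of high to low cells were 0.97 and 1.07. P2ry13 was at 256 and 130 CPM in control microglia and 240 and 143 CPM in those of 4E-BP1–cKO mice (log2 ratios, 0.97 and 0.74), and P2ry12 at 1398 and 786 CPM and 1186 and 765 CPM (0.83 and 0.63). All 3 receptors were thus higher in the cells with more ribosomal protein transcripts in each library.

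The ATP-gated channels had the opposite order. P2rx4 was at 81.9 CPM (71.4 to 93.5) above the split and 128 CPM (112 to 146) below it in control microglia, and at 61.3 CPM (47.3 to 78.1) and 141 CPM (112 to 177) in those of 4E-BP1–cKO mice. Its log2 ratios were -0.64 and -1.19. P2rx7 was at 182 and 270 CPM in control microglia and 124 and 259 CPM in those of 4E-BP1–cKO mice (log2 ratios, -0.57 and -1.05), and the control value lay just within 1.5-fold. Entpd1 was at 873 and 946 CPM in control microglia and 641 and 999 CPM in those of 4E-BP1–cKO mice (-0.12 and -0.64). P2ry6, the UDP receptor, was at 139 and 145 CPM and 147 and 136 CPM (-0.06 and 0.11), and its intervals held 1 in both libraries. Adora3, on few UMIs, was at 36.5 and 24.8 CPM and 41.5 and 16.3 CPM (0.54 and 1.30).

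Of the 8 genes, 3 (Gpr34, P2ry13 and P2ry12) were over 1.5-fold higher in both libraries in cells above the split, and 16.7% of 4793 genes with at least 200 UMIs were. Another (P2rx4, 1 of the 8) was over 1.5-fold lower in both, and 9.08% of those genes were. The median log2 ratio of the 7 genes with at least 200 UMIs was -0.06 in control microglia and 0.11 in those of 4E-BP1–cKO mice, beside -0.11 and -0.12 over all genes tested. With all genes in the total, the split between higher and lower calls was 2 and 2 in place of 3 and 1. A ratio of one of the genes to another needs no total. Each pair below sets a gene already seen higher above the split over one seen lower there. The direction was therefore given in advance, and these ratios restate the levels above. Per P2rx7 UMI there were 7.69 P2ry12 UMIs (7.0 to 8.47) in control cells above the split and 2.91 (2.63 to 3.24) in the other control cells. In the 4E-BP1–cKO library there were 9.53 (7.96 to 11.5) and 2.95 (2.44 to 3.59). P2ry13 UMIs per P2rx4 UMI were 3.12 (2.68 to 3.65) and 1.01 (0.842 to 1.22) in control microglia and 3.92 (2.98 to 5.23) and 1.01 (0.731 to 1.4) in those of 4E-BP1–cKO mice.

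The cells above the split were also deeper, with a median of 5512 against 2354 UMIs in the control library and 4716 against 1972 in the 4E-BP1–cKO library. Cx3cr1, a microglial receptor of the sorting gate, was at 2872 against 1239 CPM and 2622 against 1188 CPM. The split was therefore repeated within the cells above and within those below the median depth of each library. Among the deeper cells the log2 ratios were 0.77 and 1.05 for Gpr34, 0.66 and 0.43 for P2ry12, 0.51 and 0.46 for P2ry13 and -0.57 and -0.76 for P2rx4 (control and 4E-BP1–cKO). Among the shallower cells they were 1.4 and 0.83 for Gpr34, 1.26 and 0.88 for P2ry12, 2.02 and 1.08 for P2ry13 and -0.52 and -2.86 for P2rx4. The 4E-BP1–cKO value of P2rx4 rests on 2 UMIs in the high and 42 in the low shallow cells (ratio, 0.0156 to 0.512), and its control interval held 1 (0.376 to 1.19). The sign of each log2 ratio was the same at both depths for these 4 genes. Past 1.5-fold in both libraries were 1 gene higher (Gpr34) and 0 lower among the deeper cells, and 3 higher and 0 lower among the shallower cells. P2rx7 had -0.38 and -0.98 among the deeper cells and -0.61 and -0.56 among the shallower cells, where the 4E-BP1–cKO interval held 1 (0.367 to 1.19). A single 4E-BP1–cKO cell, with 25056 UMIs and 2.94% on ribosomal protein genes, held 18 P2rx7 UMIs, where the next held 7. It lay below the split, among 77 P2rx7 UMIs of the deeper cells and 143 at both depths. Neither ratio was computed without it. After thinning, P2rx4 had log2 ratios of -0.19 (ratio, 0.569 to 1.32) and -0.73 (0.292 to 1.21). Those of P2rx7 were -0.33 (0.588 to 1.07) and -0.72 (0.342 to 1.06), so at equal depth the intervals of both channels held 1 in both libraries. Thinning also left fewer UMIs. For P2rx4 they were 37 and 68 in high and low control cells and 15 and 23 in 4E-BP1–cKO cells. For P2rx7 they were 69 and 139, and 23 and 35. Each ratio kept its direction, so these intervals do not show that the difference was removed. In the thinned cells 3 genes were called higher and 0 lower. The share of all genes called was not counted among the deeper, the shallower or the thinned cells, so these counts have no background.

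**Figure D2:**
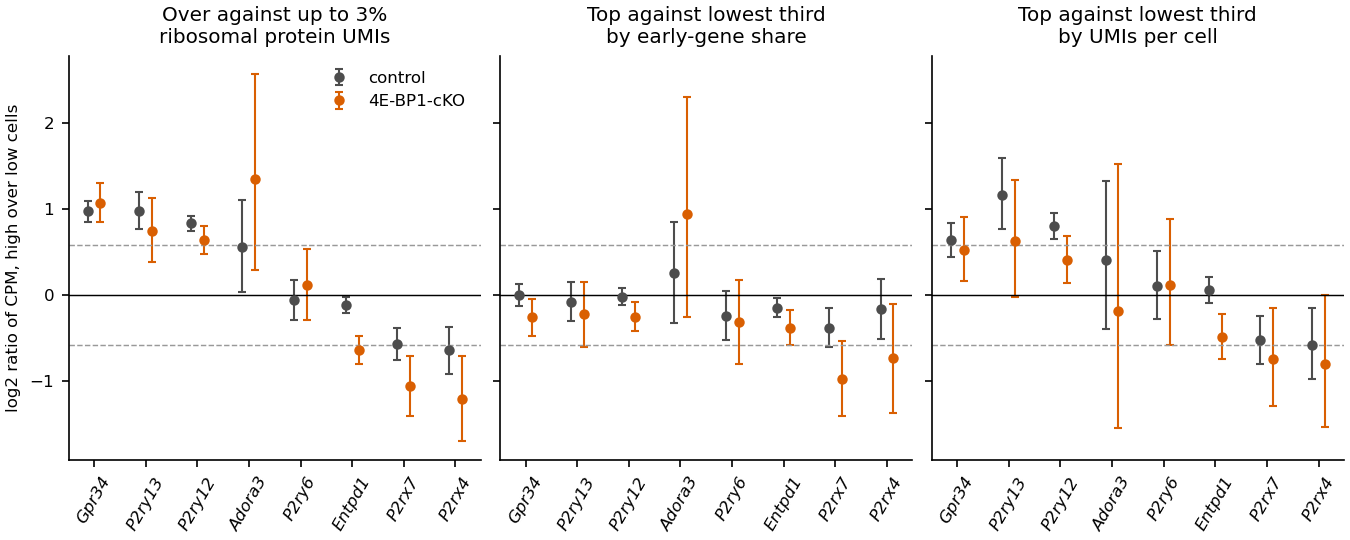
Log2 ratio of the level (CPM, no pseudocount) in high over low cells, for cells split by ribosomal protein share, early-gene share and UMIs per cell, in each library; bars are 95% intervals of counting error and dashed lines mark 1.5-fold. Gpr34, P2ry13 and P2ry12 lie above the upper line in both libraries in the ribosomal panel and P2rx4 below the lower one, whereas no gene with at least 200 UMIs lies past a line in both libraries in the early-gene panel.

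Dissociation of tissue can induce early genes such as Fos and Jun, so the 8 genes were compared along the share of UMIs on 22 such genes. The third of cells with the highest share (382 control and 148 4E-BP1–cKO cells) was set against the third with the lowest. Of the 8 genes, 0 were over 1.5-fold higher and 0 over 1.5-fold lower in both libraries, beside 4.49% and 6.48% of 4771 genes. P2ry12 was at 1168 CPM in high and 1185 CPM in low control cells (log2 ratio, -0.02) and at 1025 and 1223 CPM in the 4E-BP1–cKO cells (-0.26). P2rx7 was lower in high cells, with 179 against 233 CPM in the control library (-0.38; ratio, 0.654 to 0.902) and 127 against 250 CPM in the 4E-BP1–cKO library (-0.97; 0.376 to 0.688). P2rx4 had log2 ratios of -0.17 and -0.73. Among cells of up to 3% ribosomal protein UMIs, P2rx7 had log2 ratios of 0.16 and 0.38 and P2rx4 of 0.42 and 0.31, so that neither was lower in the high cells there. Above 3%, P2rx7 had -0.44 and -0.75 and P2rx4 -0.15 and -0.20. P2ry12 and Gpr34 were lower in the high cells above 3% in both libraries, at -0.39 (ratio, 0.705 to 0.828) and -0.48 (0.621 to 0.829) for P2ry12 and -0.54 (0.619 to 0.759) and -0.43 (0.628 to 0.878) for Gpr34. P2ry13 there had -0.54 (0.567 to 0.831) and -0.42 (0.537 to 1.04). Among cells of up to 3% the libraries differed in sign, with 0.06 and -0.62 for P2ry12 and 0.36 and -0.68 for Gpr34.

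Along depth itself, the third of cells with the most UMIs was set against the third with the fewest, at medians of 7418 and 1396 UMIs in control microglia and 7244 and 908 in those of 4E-BP1–cKO mice. P2ry13 was over 1.5-fold higher in the deep cells of both libraries, at 250 against 112 CPM (log2 ratio, 1.16) and 228 against 148 CPM (0.62; ratio, 0.985 to 2.53). This was 1 of the 8 genes, beside 9.24% of 4793 genes, and 0 of the 8 were lower in both, beside 4.86%. P2ry12 had log2 ratios of 0.80 and 0.40, Gpr34 of 0.63 and 0.52, P2rx4 of -0.57 and -0.79 and P2rx7 of -0.53 and -0.74. P2ry6 had 0.10 and 0.11, and its intervals held 1 in both libraries. With a mitochondrial limit of 10%, Gpr34 (0.71 and 0.62) took the place of P2ry13 (1.06 and 0.58) as the 1 gene called higher. Among cells above 3% ribosomal protein UMIs none of the 3 receptors was called higher in the deep cells. There P2ry13 had -0.07 and 0.20, with intervals that held 1. P2ry12 had -0.32 (ratio, 0.723 to 0.895) and -0.07 (0.777 to 1.17) and Gpr34 -0.53 (0.604 to 0.795) and -0.20 (0.677 to 1.14), so both turned to lower in the deep control cells.

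With the study's settings (20 principal components, resolution 1.4) the cells fell into 9 clusters, numbered by size. In 7 of them both libraries had at least 20 cells. The 8 genes took part in the clustering, so their levels by cluster are a description and no test. The total again leaves ribosomal protein and mitochondrial genes out. P2ry12 was highest in cluster 5 (leading genes Gm5420, Acss1 and Pot1b), at 1996 CPM (1897 to 2098) in control microglia and 1948 CPM (1758 to 2153) in those of 4E-BP1–cKO mice. It was lowest in cluster 2 (Raver2, Slc24a1 and Il10), at 375 CPM (324 to 431) and 422 CPM (342 to 515). P2ry13 ran from 62.8 CPM in cluster 2 to 392 CPM in cluster 5 in control microglia and from 74.0 to 421 CPM in those of 4E-BP1–cKO mice. Gpr34 ran between the same clusters, from 164 to 1206 CPM and from 231 to 1359 CPM. P2ry13 and Gpr34 were themselves among the 10 leading genes of cluster 5. In both libraries these 3 receptors therefore had the same highest and the same lowest cluster.

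P2rx7 was highest in cluster 1 (Gm35188, Gm43221 and B430010I23Rik), at 306 CPM (265 to 352) and 297 CPM (217 to 398), and lowest in cluster 6 (Cxcl2, Mt1 and Mir155hg), at 101 CPM (81.1 to 125) and 61.8 CPM (39.2 to 92.7). P2rx4 was highest in cluster 7 (Nfe2l3, Gm12216 and Caprin2) in the control library, at 164 CPM (122 to 216), and in cluster 1 in the 4E-BP1–cKO library, at 218 CPM (150 to 306). Over the 7 clusters, Entpd1 in the control library lay between 821 CPM in cluster 4 (Cxcl10, Bsg and Utrn) and 1000 CPM in cluster 7, a 1.22-fold range. In the 4E-BP1–cKO library it ran from 500 CPM (430 to 577) in cluster 6 to 1092 CPM (961 to 1236) in cluster 2, or 2.19-fold. Cluster 9, with 25 control and 16 4E-BP1–cKO cells, was outside the 7. Entpd1 was lower there in each library, at 642 CPM (505 to 805) and 407 CPM (268 to 592). P2ry6 spanned 96.8 to 180 CPM in control cells, and among those of 4E-BP1–cKO mice it ran from 18.1 CPM in cluster 7, which rests on 1 UMI, to 204 CPM in cluster 6. Over 2-fold lay between the highest and the lowest cluster in both libraries for 6 of the 8 genes, all but P2ry6 and Entpd1. Adora3 is counted there on 2 UMIs in its lowest cluster of each library. Of the 7 genes with at least 200 UMIs it was 5, and of all 4793 such genes 72.1%. The first count was 5 when the clustering left out the 8 genes, which gave 9 clusters again.

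**Figure D3:**
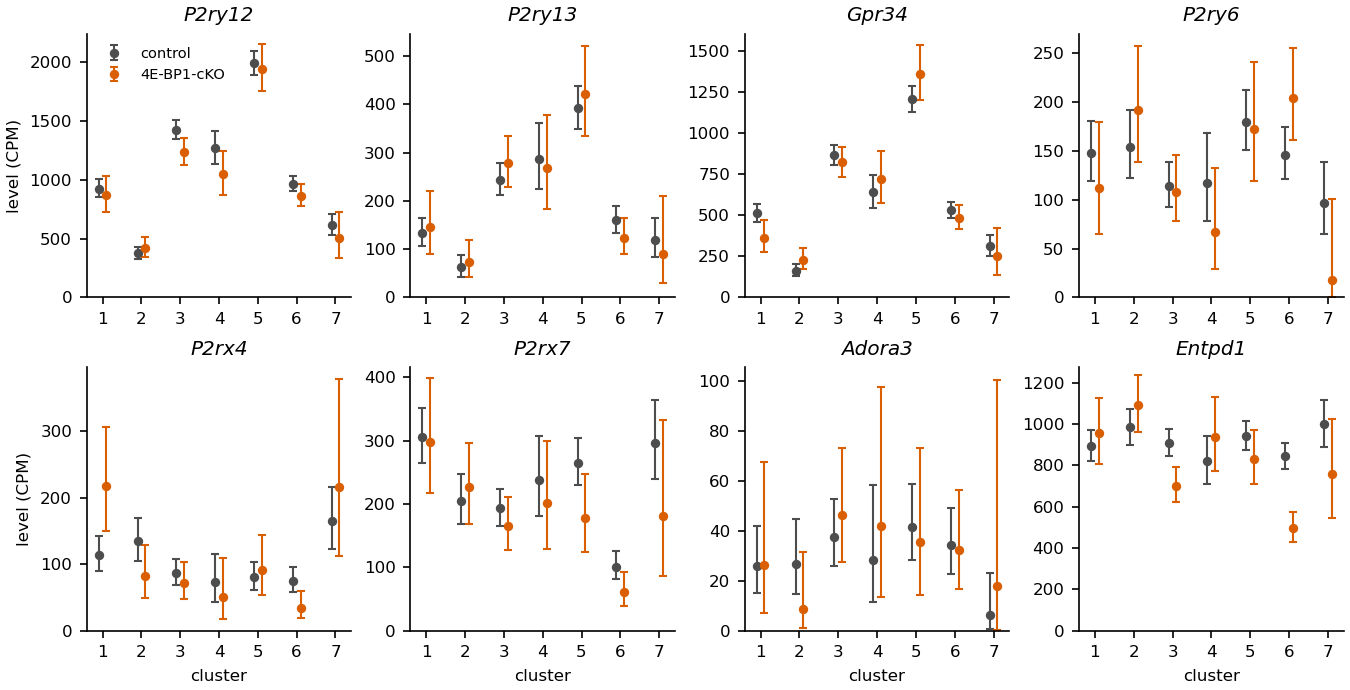
Level in CPM of each gene in the 7 clusters where both libraries had at least 20 cells, for the control and 4E-BP1–cKO libraries; bars are 95% Poisson intervals. P2ry12, P2ry13 and Gpr34 peak in cluster 5 and are lowest in cluster 2 in both libraries, whereas P2rx7 is lowest in cluster 6.

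The genes whose levels followed each gene most closely were sought over 16 profiles of a cluster in a library, among 2461 genes with at least 500 UMIs, by Pearson's r of log2(CPM + 10). The profiles share libraries and differ in depth, so r is a description. For P2ry12 they were Gpr34 (r = 0.97), P2ry13 (0.96) and Fcrls (0.94), a microglial Fc receptor-like gene, and for P2ry13 they were Vsir (0.97), P2ry12 (0.96) and Lgmn (0.95). For Gpr34 they included P2ry12 (0.97) and Selenop (0.96), a selenoprotein gene. For P2rx7 they were Gm16337 (0.92), Pag1 (0.92) and Lhfpl2 (0.91), and for P2rx4 Gm10563 (0.88), Gm20721 (0.86) and Usp50 (0.85). For P2ry6 they were Cd180 (0.89), Hnrnpl (0.86) and Rap2a (0.85), and for Entpd1 Pds5a (0.86), Gpcpd1 (0.84) and Arhgap22 (0.84). Between the neighbours P2rx4 and P2rx7, r was 0.62. P2rx7 and P2ry12 had an r of -0.06.

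Within the clusters, the level in the 4E-BP1–cKO library was set against that in the control library for the 8 genes in 7 clusters. Of these 56 ratios, 9 had an interval without 1, 7 below it and 2 above it. All 9 were among the 49 ratios of the 7 genes with at least 200 UMIs. Over all 33551 ratios of genes with that many UMIs in the same clusters, 6.83% had an interval below 1 and 6.52% above it. Entpd1 in cluster 6 was at 845 CPM in control microglia and 500 CPM in those of 4E-BP1–cKO mice (log2 ratio, -0.76; ratio, 0.50 to 0.695), and in cluster 3 (Fos, Ccl3 and Hspa1a) at 910 and 702 CPM (-0.37; 0.670 to 0.887). The cluster of the control cell with 132 Entpd1 UMIs was not looked up, and neither Entpd1 ratio was computed without it. P2rx7 was at 101 and 61.8 CPM in cluster 6 (-0.71; 0.367 to 0.975). P2rx4 went both ways, with 114 and 218 CPM in cluster 1 (0.93; 1.23 to 2.93, on 74 and 33 UMIs) and 75.5 and 34.9 CPM in cluster 6 (-1.09; 0.234 to 0.849, on 64 and 13 UMIs).

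The libraries were also compared within the cells above 3% ribosomal protein UMIs and within the others. Unlike the levels over all kept cells, these leave ribosomal protein and mitochondrial genes out of the total. Above the split, Entpd1 was at 873 CPM in control microglia and 641 CPM in those of 4E-BP1–cKO mice, a ratio of 0.735 (0.674 to 0.801), and P2rx7 at 182 and 124 CPM, a ratio of 0.685 (0.561 to 0.832). In the other cells Entpd1 was at 946 and 999 CPM, a ratio of 1.06 (0.958 to 1.16), and P2rx7 at 270 and 259 CPM, a ratio of 0.962 (0.793 to 1.16). The control cell with 132 Entpd1 UMIs, at 9.31% ribosomal protein UMIs, lay above the split. The Entpd1 ratio there was not computed without that cell. The 4E-BP1–cKO cell with 18 P2rx7 UMIs lay below the split, and the P2rx7 ratio there was not computed without it. P2ry12 had a ratio of 0.849 (0.796 to 0.905) above the split and 0.974 (0.872 to 1.09) below it, and P2rx4 had 0.748 (0.559 to 0.991) and 1.10 (0.843 to 1.43). These differences between the cell groups were not tested, and no gene passed 1.5-fold in either group among those with at least 200 UMIs. Neither the share of all genes past 1.5-fold nor the share with an interval without 1 was counted in either group.

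**Figure D4:**
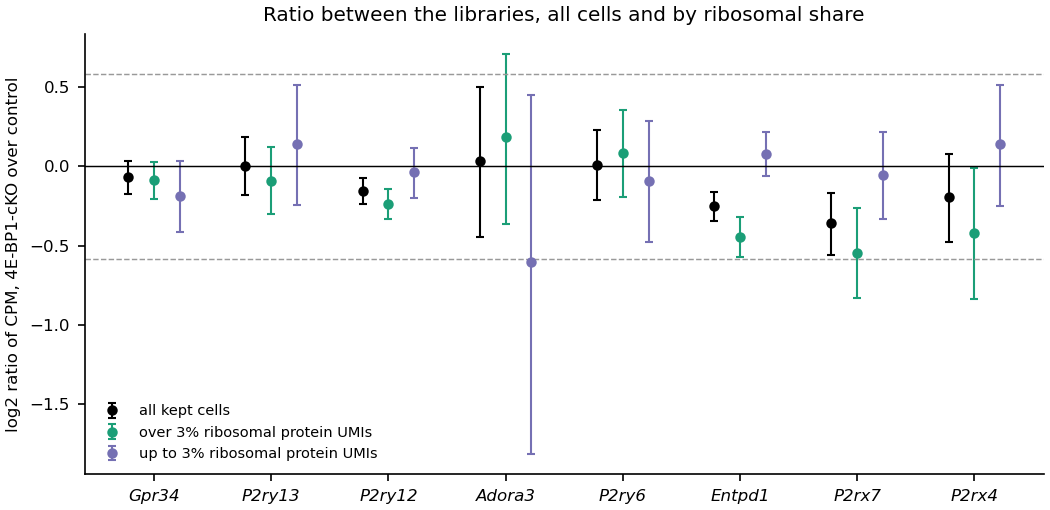
Log2 ratio of the level (CPM, no pseudocount) in the 4E-BP1–cKO over the control library for the 8 genes, in all kept cells and in cells over and up to 3% ribosomal protein UMIs; bars are 95% intervals of counting error and dashed lines mark 1.5-fold. The total held all genes for all kept cells, and left out ribosomal protein and mitochondrial genes for the cell groups. Entpd1, P2rx7, P2ry12 and P2rx4 lie below 0 with their intervals in the cells over 3% and have intervals that hold 0 in the others.

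Most cells showed only some of the 8 genes. With all UMIs, a median of 4 genes was detected per control cell and 3 per 4E-BP1–cKO cell. All 8 were detected in 12 and 2 cells and 0 of them in 38 (3.31%; 2.35 to 4.52%) and 24 cells (5.39%; 3.49 to 7.92%). At least 5 were detected in 34.2% (31.4 to 37.0%) and 29.0% (24.8 to 33.4%) of cells. At 872 UMIs per cell the median was 2 in both libraries, and 5 or more were seen in 1.23% and 0.80% of cells.

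**Figure D5:**
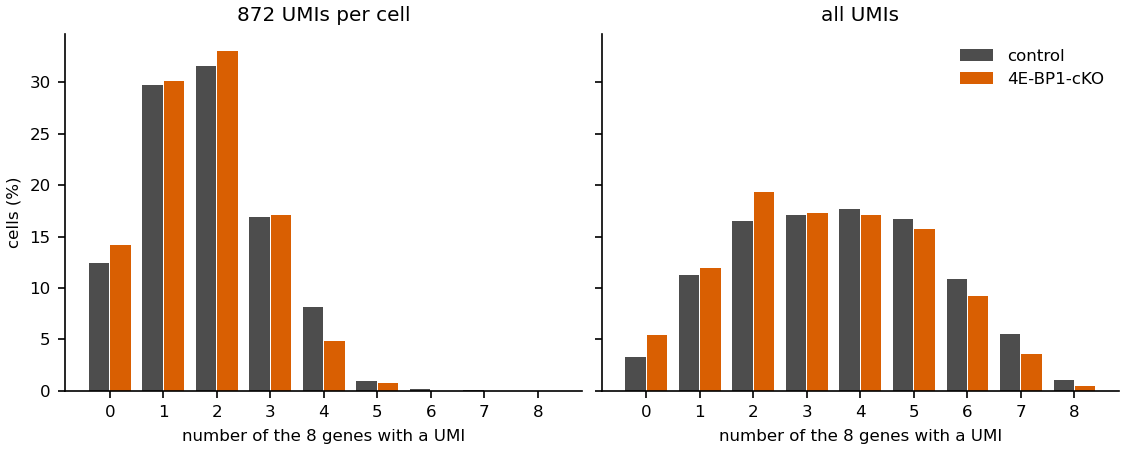
Percentage of cells by the number of the 8 genes with at least 1 UMI, after thinning to equal depth (left) and with all UMIs (right), in the control and 4E-BP1–cKO libraries. The thinned cells centre on 2 genes in both libraries, and with all UMIs the cells spread up to 8.

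Each of the 28 pairs of genes was also compared with the share of cells expected if the genes were detected independently, the product of their shares. With all UMIs, 22 pairs in control microglia and 11 in those of 4E-BP1–cKO mice were found together in more cells than the product, beyond the binomial interval. At 872 UMIs per cell, 2 and 0 pairs were above it and 0 were below. The 2 pairs joined P2ry12 with its neighbour P2ry13 and with Gpr34. The share of such pairs among other genes was not counted at either depth, so these counts have no background. The intervals also leave out the error of the product. P2ry12 and Gpr34 were found together in 20.2% (17.8 to 22.8%) of thinned control cells, beside a product of 16.5%, and P2ry12 and P2ry13 in 8.88% (7.24 to 10.8%), beside 6.87%. In the thinned 4E-BP1–cKO cells these pairs were found in 18.4% (14.6 to 22.7%), beside 16.5%, and in 9.33% (6.59 to 12.7%), beside 7.68%. P2rx4 and P2rx7 were found together in 1.70% (1.01 to 2.68%), beside 1.4%, and 0.80% (0.165 to 2.32%), beside 1.06%.

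The other genes of the nucleotide pathway were taken from a list of 45. Of these, 7 had 0 UMIs, 23 had some but fewer than 200 and 15 had at least 200. None of the 5 other P2X receptors, the 8 other P2Y and related receptors, the 3 other adenosine receptors or the 9 other ectonucleotidases and phosphatases listed reached 200 UMIs. P2rx1 had 20 and 6 UMIs, P2ry14, a receptor for UDP-sugars, 21 and 9, and Nt5e, which encodes CD73, the enzyme that makes adenosine from AMP, 6 and 2. Enpp1, a pyrophosphatase of nucleotides, had the most among them, with 113 and 36 UMIs, which is fewer than Adora3 had. Entpd6, of the same family as Entpd1, had 108 and 15 UMIs, a ratio of 0.385 (0.208 to 0.663), the 1 listed gene whose whole interval lay past 1.5-fold. Entpd6 was under the 200 UMIs that a call needed and was picked from the list after its value was seen. The share of all genes with such an interval was not counted. Between the libraries, 0 of the 15 genes were past 1.5-fold in either direction, and their median log2 ratio was 0.11. Nlrp3, the inflammasome sensor downstream of P2rx7, was at 343 and 487 CPM (log2 ratio, 0.50; ratio, 1.31 to 1.54), and Il1b, the cytokine matured by the inflammasome, at 161 and 205 CPM (0.35; 1.12 to 1.45). A single 4E-BP1–cKO cell held 54 of the 356 Il1b UMIs of that library, and without the cell with the most Il1b UMIs of each library the ratio was 1.15 (1.0 to 1.31). Irf5, a regulator of P2rx4 transcription, was at 182 and 235 CPM (0.37), and Gnaq, a G protein subunit, at 670 and 555 CPM (-0.27). Kcnk13, the potassium channel of microglial surveillance, was at 260 and 238 CPM (-0.13), and Irf8 at 363 and 355 CPM (-0.03). The nucleoside genes Pnp and Slc29a3 each had 0.13, Adk -0.19, the channel subunits Lrrc8a and Lrrc8d 0.32 and -0.16, and Gnai2, Mapk14, Pycard and Casp1 0.13, -0.11, -0.19 and 0.11.

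Along the ribosomal share, 3 of these 15 genes were over 1.5-fold higher and 1 lower in both libraries, beside the 16.7% and 9.08% of all genes given above. The first were Il1b (log2 ratios, 1.92 and 1.32), Gnai2 (1.68 and 1.45), the Gi subunit that couples to P2ry12, and Pnp (0.90 and 1.46). The other was Adk (-0.75 and -0.63), the kinase that removes adenosine inside cells, whose 4E-BP1–cKO value rests on 27 and 22 UMIs with an interval that held 1 (0.350 to 1.18). Along the early-gene share, Il1b was higher (1.18 and 1.81) and Kcnk13 lower (-0.70 and -0.87), beside 4.49% and 6.48% of all genes. Along depth 3 of the 15 were higher (Il1b, Gnai2 and Pnp), beside 9.24%.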

How the data were processed

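The 2 libraries were made with 10x Chromium 3′ chemistry from sorted spinal microglia. The authors aligned the reads to mm10 with Cell Ranger 8.0.1 and deposited UMI counts that were not normalized, for barcodes already called as cells (at least 500 and 501 UMIs).

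Barcodes with more than 300 genes and under 5% mitochondrial UMIs were kept. UMIs were summed per library and cell group and given as CPM. The total held all genes for whole libraries, and left out ribosomal protein and mitochondrial genes for levels by cell group and cluster. Ratios used a pseudocount of 1 CPM on the log2 scale, and a call needed at least 200 UMIs and over 1.5-fold. Doublets were called with Scrublet (scanpy 1.11.5, 2 control and 8 4E-BP1–cKO cells, where 10.5 and 1.58 were expected) in place of the study's caller and were removed only as an alternative. The caller found fewer control doublets, and more 4E-BP1–cKO doublets, than expected. Clusters came from SCTransform (0.4.2) and RPCA integration in Seurat 5.3.0. The other tools were R 4.3.3, edgeR 4.0.16 (TMM factors only), Python 3.11.15, numpy 2.4.6, scipy 1.17.1, pandas 2.3.3 and matplotlib 3.10.9. The ratio between the libraries and its interval were tested on simulated Poisson counts. These were sums over cells, so UMIs gathered in a few cells were not covered. Thinning was checked for its total, and the other steps were not simulated. Gene positions came from RefSeq (GRCm38.p6) and strands of overlapping genes from GENCODE vM39.

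The 8 genes and all lists were chosen with earlier results of these data known. The genes named are these 8, pathway genes with at least 200 UMIs, the 3 genes most like each of the 8, up to 3 leading genes of a cluster and overlapping genes; 1 gene that this rule names is not reported here. Cx3cr1, Eif4ebp1, P2rx1, P2ry14, Nt5e, Enpp1 and Entpd6 were named outside this rule, after their values were seen. Summed levels of the marker lists were 9158 and 9198 CPM for microglia. They were at most 86.4 CPM in the control cells, for endothelial cells, and 122 CPM in the 4E-BP1–cKO cells, for oligodendrocytes, over border-associated macrophages, monocytes, neutrophils, platelets, T and NK cells, B cells, oligodendrocytes, astrocytes, endothelial cells, neurons and erythrocytes. Alternatives were other filters, doublet removal, thinning, TMM factors, other totals and pseudocounts, other cell splits and other clusterings. Splits by ribosomal share above and below the median depth, the comparison of libraries within cells of high or low ribosomal share and the removal of the cell with the most UMIs of a gene (also for pathway genes) were added after seeing the data. The ratios of one gene to another were not planned either.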

Additional observations from a re-analysis of the deposited data

Results flagged for a closer look

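In 3 cases a gene stood higher in one cell group in 1 library and lower in the other, and the difference between the libraries was not tested. P2ry6 had a log2 ratio of high to low ribosomal share of -0.06 in the control library (ratio, 0.817 to 1.13) and 0.11 in the 4E-BP1–cKO library (0.816 to 1.44), a difference of 0.17. By depth, Entpd1 had a log2 ratio of 0.05 (0.934 to 1.15) in the control library and -0.49 (0.594 to 0.857) in the 4E-BP1–cKO library, a difference of -0.54. The control cell with 132 Entpd1 UMIs had 14461 UMIs in all, so it was among the deep cells, which held 2545 Entpd1 UMIs. The control ratio by depth was not computed without that cell, so its sign may rest on it. Adora3 had 0.40 (0.759 to 2.51) and -0.18 (0.341 to 2.88) by depth, a difference of -0.58, on 14 and 5 UMIs in the shallow cells. Of these 6 ratios, 1 had an interval without 1, that of Entpd1 in the 4E-BP1–cKO library. No group held the 4 libraries that a check for outlying samples needs.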

How the results depend on the processing

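No paired analysis was possible because each genotype has 1 library, and for the same reason no replicate could be left out. The count of genes past 1.5-fold between the libraries was 0 in all 10 planned and 3 added settings. The share of all genes called was counted in the main setting only, so counts in the other settings have no background. Genes called higher by ribosomal share numbered 1 among cells above the median depth. Genes called lower numbered 2 with all genes in the total and with the third of highest against the third of lowest share, and 0 after thinning and among cells above and below the median depth. By depth, the genes called higher numbered 2 with at least 500 genes per cell and 0 with all genes in the total and within cells over 3% ribosomal protein UMIs. Those called lower numbered 1 with a mitochondrial limit of 10%, with at least 500 genes and with all genes in the total. In control cells over 3%, the log2 ratios by depth turned from 1.16 to -0.065 for P2ry13, from 0.80 to -0.32 for P2ry12 and from 0.63 to -0.53 for Gpr34. With a mitochondrial limit of 10% the 1 gene called higher by depth was Gpr34 in place of P2ry13. With at least 2 UMIs as detection, 11.3% and 8.76% of cells had 5 or more of the genes. Of the log2 ratios of single genes, 85 of 104 between libraries, 141 of 144 by ribosomal share, 112 of 128 by early-gene share and 97 of 112 by depth kept their direction. Each tally includes the setting with at least 20 UMIs, which alters only which genes are called. Its ratios equal the main ones, so they kept their direction by design. Thinning turned Gpr34 between the libraries from -0.07 to 0.12 and P2ry6 from 0.01 to -0.36. Leaving doublets out moved no count of calls. The cause of these shifts was not tested. Genes near 30 CPM, such as Adora3, are limited by depth, at 196 UMIs in all.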
